A study of Mus musculus with 6 samples.

Results

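Germ cell and meiosis genes are the genes of primordial germ cells, of the chromosome pairing machinery of meiosis, of the piRNA pathway and of spermatogenesis. Of 38 such genes listed by symbol, 37 had at least 1 probe set annotated with that symbol alone, out of 19937 genes measured in all. The gene without one was Rhox5. The members had 39 probe sets, 2 each for Hormad1 and Dppa3 and 1 each for the others. Where a gene had 2, the probe set with the higher mean over all arrays stood for it.

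Expression was read from 6 one-colour Affymetrix arrays hybridised with RNA from mouse embryonic stem cells, 3 from controls and 3 from cells with a Trim71 knockdown. Trim71 (Lin41) is an RNA-binding ubiquitin ligase of early embryos and stem cells. The knockdown cells had been transfected for 72 h with 3 siRNAs against Trim71, pooled. The labels mention a non-targeting siRNA but call the control cells wild type, so whether they were transfected is not settled by them. The labels do not name the strain or the cell line or say whether replicates were separate cultures, so p-values measure only the spread between these arrays, which may be technical. The targeted gene, Trim71, averaged 10.50 (SD 0.018, n = 3) on the control arrays and 8.98 (SD 0.025, n = 3) on the knockdown arrays on the log2 scale, 2.87-fold lower.

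Germ cells arise in the mammalian embryo from pluripotent epiblast cells. They later enter meiosis, in which cohesin rings with meiosis-specific subunits hold sister chromatids, an axis of SYCP and HORMAD proteins forms along each chromosome, and the synaptonemal complex zips the homologues together. The piRNA pathway loads small RNAs into PIWI proteins that silence transposons in the germ line. Many of these genes have CpG-rich promoters that are methylated and silent in somatic cells. Mouse embryonic stem cells resemble the cells from which germ cells arise and are known to transcribe some of them. DNA methylation was not measured here.

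All values are log2 signals after RMA, and a difference is knockdown minus control on that scale. The deposited values carry no detection call. Of the 37 members, 17 had a mean signal under the median gene (6.70), and no value here tells which of them were near background. The embryonic stem cell markers Pou5f1, Sox2, Nanog, Zfp42, Esrrb, Klf4, Tdgf1, Utf1, Fgf4 and Dppa5a all had means above the median gene, with a list mean of 11.47 to 11.51 on the control arrays and 11.62 to 11.68 on the knockdown arrays. The 11 fibroblast feeder markers measured had list means of 6.02 to 6.13 and 5.93 to 6.08. Of these, 8 lay under the median gene, while Acta2 averaged 9.15 on the control and 8.45 on the knockdown arrays. The 20 late spermatogenic genes, such as the protamines Prm1 and Prm2, were all under the median gene, with list means of 4.72 to 4.77 and 4.71 to 4.78. In such bulk RNA a different number of cells in a state and a different amount of RNA per cell cannot be told apart. Knockdown array 3 stood apart, with an upper quartile of 8.42 against 8.32 to 8.35 on the other 5 arrays and a root mean square distance of its genes from their group means of 0.11 against 0.07 to 0.09. The mean over the 37 members was 6.88 on that array, against 6.78 and 6.81 on knockdown arrays 1 and 2 and 6.72 to 6.78 on the control arrays.

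The comparison asked which germ cell and meiosis genes differed after the knockdown. Smc1b, Kit, Hormad2, Mael and Tex101 rose and Tex15 fell, each by less than 1.5-fold, at an adjusted p under 0.05 in limma (Benjamini-Hochberg over 19937 genes). The 5 higher members are 13.5% of the 37, where 3.39% of all genes tested were called higher. The 1 lower member is 2.70%, where 2.15% of all genes were called lower. At an unadjusted p under 0.05 stood 12 members (32.4%), against 19.0% of all genes. The control and knockdown values did not overlap for 11 members (29.7%), against 25.5% of all genes, a share near the background. Because the members were chosen with earlier results of these data known, these shares only describe the list and were not tested. The median difference of the 37 members was 0.05, beside 0.0048 over all genes. Differences lay above 0 for 22 members and below it for 15, of which Rec8 and Brdt went from above to below under both rescalings tried. Rescaling the arrays moved the balance of calls. A repeated quantile normalization gave 4 higher and 2 lower members, with 779 higher and 763 lower genes in all, where the deposited scale gave 675 and 428. Centring each array on its median gave 4 and 1 members, and 527 and 616 genes.

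**Figure D1:**
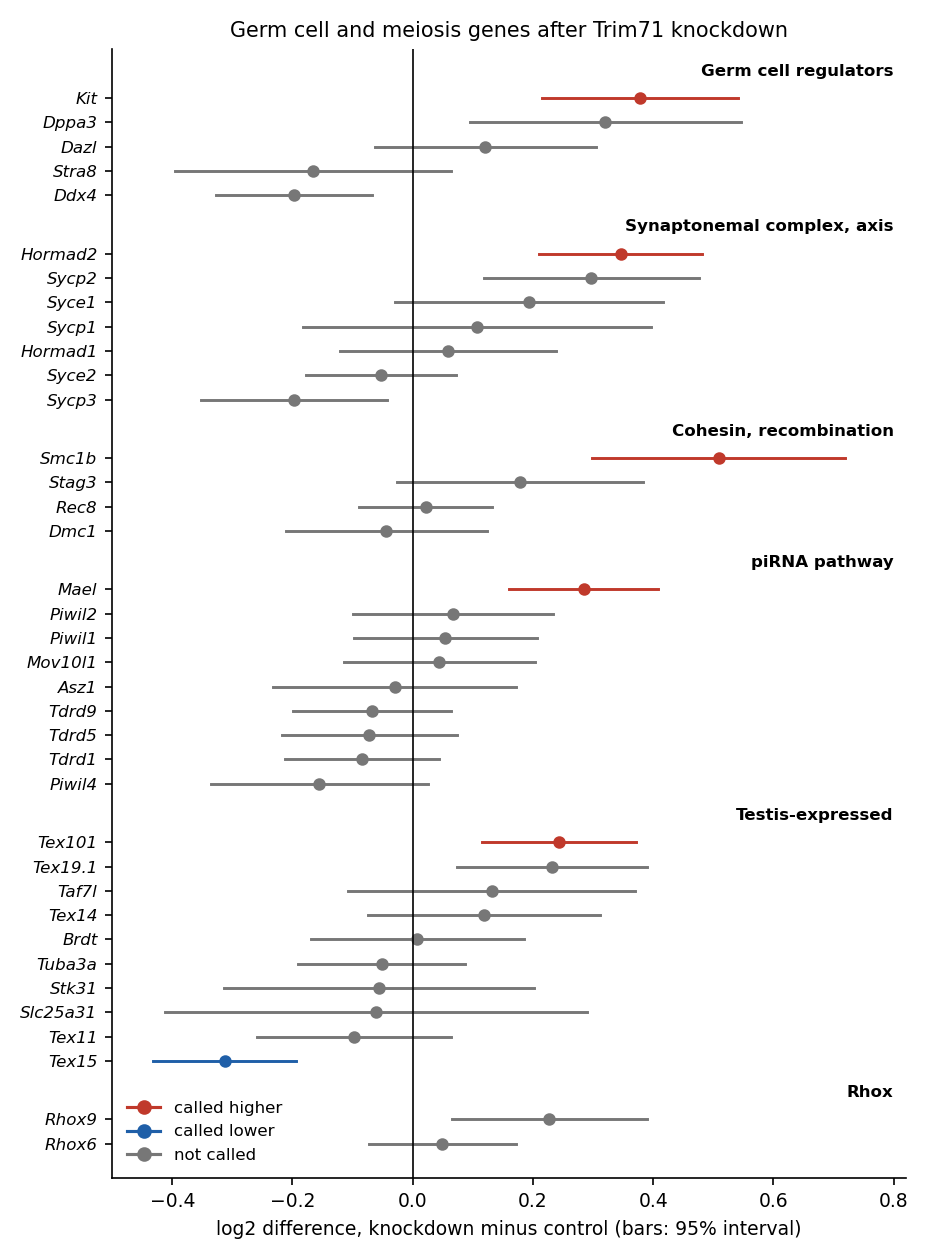
Log2 difference between Trim71 knockdown and control (x axis) for the 37 measured members, grouped by role, with 95% intervals from limma (3 arrays per group). The called members lie at 0.24 to 0.51 (5 higher, red) and at −0.31 (1 lower, blue), and the other 31 (grey) between −0.20 and 0.32.

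The calls were close to the threshold, and most did not hold with fewer arrays. With 1 array left out, the higher members numbered 0, 1 and 1 when control array 1, 2 or 3 was dropped. They numbered 2, 0 and 4 when knockdown array 1, 2 or 3 was dropped. Calls fell over all genes as well, where the share called higher was 0.742%, 0.898% and 1.14% in the first 3 of these fits and 2.25%, 1.14% and 3.02% in the others. In the fit without knockdown array 3, the array that stood apart, Smc1b, Kit, Hormad2 and Mael were called higher and Tex15 lower. Over all genes that fit called 603 higher and 699 lower, so the larger count was then on the lower side. In limma 0 members were called when all 34760 probe sets were tested together (12 at an unadjusted p under 0.05) or when the variance of each gene was not moderated (11). Each fit with 1 array left out held 11 to 14 members at an unadjusted p under 0.05. Over all genes 19.0% stood at that threshold in the fit first described. Their share was not counted in these other fits, so the member counts have no background beside them.

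**Figure D2:**
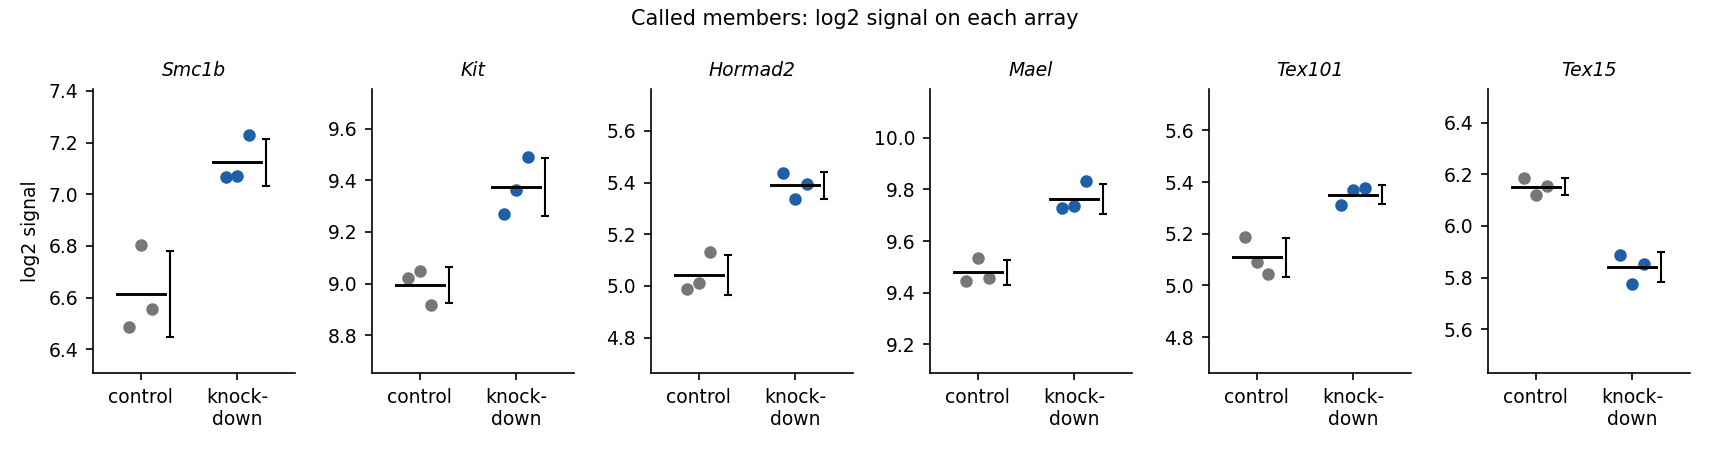
Log2 signal (y axis, the same span of 1.1 in each panel) of the 6 called members on each array, control in grey and knockdown in blue, with the group mean as a line and the SD as a bar (n = 3). In each panel the 3 knockdown values lie wholly above (Tex15: wholly below) the 3 control values.

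Among the cohesin and recombination genes 1 of 4 was called. Smc1b, which encodes the meiosis-specific SMC1 subunit of cohesin, had the largest difference of all members. It read 6.49, 6.80 and 6.56 on control arrays 1 to 3 and 7.07, 7.07 and 7.23 on knockdown arrays 1 to 3. All knockdown values lay above all control values, and control array 2 was the closest to them. The difference was 0.51 ± 0.091 (SE, 1.42-fold, adjusted p = 0.0215 in limma). Smc1b kept its call without control array 2, knockdown array 1 or knockdown array 3, while its adjusted p was 0.0907 without control array 1. The adjusted p was 0.087 without control array 3 and 0.0705 without knockdown array 2. The other meiotic cohesin subunits were not called. Stag3, the meiosis-specific stromalin subunit, was at 0.18 ± 0.088 (SE, adjusted p = 0.333), with 8.66 on knockdown array 1, inside the control range of 8.64 to 8.71, and 8.94 and 8.99 on the other two. Rec8, the meiotic kleisin, was at 0.02 (95% interval −0.09 to 0.13), a value that turned negative with array weights and under both rescalings tried. Dmc1, the strand exchange enzyme of meiotic recombination, was at −0.04 (−0.21 to 0.12).

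Among the axis and synaptonemal complex genes 1 of 7 was called. Hormad2 encodes a HORMA-domain protein that binds chromosome axes that have not synapsed. Its control values were 4.99, 5.01 and 5.13 and its knockdown values 5.44, 5.34 and 5.39, without overlap and all under the median gene (6.70). The difference was 0.35 ± 0.058 (SE, 1.27-fold, adjusted p = 0.018 in limma). Hormad2 kept its call without control array 3 or knockdown array 3, and reached 0.0913 and 0.0865 when control array 1 or 2 was dropped and 0.0538 and 0.0536 when knockdown array 1 or 2 was. Its paralogue Hormad1 was at 0.06 (−0.12 to 0.24) on the probe set used and at 0.16 (−0.11 to 0.44, in the fit of all probe sets) on its other one. That other probe set is numbered near that of Stra8 on chromosome 6, while Hormad1 lies on chromosome 3. Whether it reads Hormad1 was not tested.

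Sycp2 and Sycp3, which form the lateral elements of the complex, stood on opposite sides of 0 and neither was called. Sycp2 read 5.22, 5.11 and 5.07 in control cells and 5.35, 5.36 and 5.58 after the knockdown. Its difference was 0.30 ± 0.077 (SE, adjusted p = 0.0733), with no overlap between groups. Sycp3 read 9.73, 9.66 and 9.52 and then 9.38, 9.45 and 9.48, a difference of −0.20 ± 0.066 (SE, adjusted p = 0.152), also without overlap. Sycp2 passed with array weights (adjusted p = 0.0467) and Sycp3 with a trended and robust prior (0.0307). Their difference from each other was not tested. Sycp1, the transverse filament, was at 0.11, and the central element genes Syce1 and Syce2 were at 0.19 and −0.05, with adjusted p-values of 0.734, 0.336 and 0.687.

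Among the genes grouped as germ cell regulators 1 of 5 was called. Kit, the receptor for stem cell factor that migrating primordial germ cells and spermatogonia depend on, read 9.02, 9.05 and 8.92 in control cells and 9.27, 9.36 and 9.49 in knockdown cells. The groups did not overlap, and knockdown array 3 was the highest. The difference was 0.38 ± 0.07 (SE, 1.30-fold, adjusted p = 0.0245 in limma). Kit kept its call without knockdown array 1 or 3. The adjusted p was 0.0938, 0.0772 and 0.0937 without control array 1, 2 and 3, and 0.0849 without knockdown array 2.

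Dppa3 (Stella), a maternal and germ cell protein that guards methylated DNA in the zygote, was not called on the probe set used, at 0.32 ± 0.097 (SE, adjusted p = 0.116). That probe set read 6.90, 6.98 and 7.18 in control and 7.45, 7.18 and 7.40 in knockdown cells, so control array 3 and knockdown array 2 met at 7.18. Its second probe set read 6.72, 6.60 and 6.67 and then 6.90, 6.90 and 7.10, a difference of 0.30 without overlap. In the limma fit of all probe sets neither was called (adjusted p = 0.247 for the first and 0.126 for the second). The second probe set is numbered close to those of the X-linked Rhox9 and Rhox11, the first between those of Stk31 and Asz1 on chromosome 6. The 2 may therefore read different loci, which was not tested. With both averaged the difference was 0.31 ± 0.07 (SE, adjusted p = 0.0448 in limma), past the threshold. That average stands for Dppa3 only if both probe sets read it. The first probe set also passed with a trended and robust prior (0.0416) and when only the 9969 genes at or above the median signal were tested (0.0445). Ddx4 (Vasa), an RNA helicase of germ cells, lay lower without a call, with 7.97, 8.02 and 7.91 in control and 7.75, 7.72 and 7.84 in knockdown cells. Its difference was −0.20 ± 0.055 (SE, adjusted p = 0.0953). It passed the threshold among these brighter genes (adjusted p = 0.0264), with array weights (0.0187) and after a repeated quantile normalization (0.0255). Dazl, an RNA-binding translational regulator, was at 0.12 (−0.06 to 0.30). Stra8, which retinoic acid induces as cells enter meiosis, was at −0.17 (−0.40 to 0.06), with means of 4.79 and 4.63.

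Among the piRNA pathway genes 1 of 9 was called, and the median difference was −0.03. Mael, whose product acts in transposon silencing in the germ granules of spermatogenic cells, read 9.45, 9.54 and 9.46 in control and 9.73, 9.73 and 9.83 in knockdown cells. The groups did not overlap. The difference was 0.28 ± 0.053 (SE, 1.22-fold, adjusted p = 0.026 in limma). Among the 6 fits with 1 array left out, Mael was called only in that without knockdown array 3. The adjusted p was 0.124, 0.076 and 0.0995 without control array 1, 2 and 3, and 0.053 and 0.0779 without knockdown array 1 and 2.

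None of the PIWI genes was called. Piwil1 (MIWI), Piwil2 (MILI) and Piwil4 (MIWI2), whose proteins carry the piRNAs, were at 0.05, 0.07 and −0.16. The Tudor-domain genes Tdrd1, Tdrd5 and Tdrd9, which organise germ granules, were at −0.08, −0.07 and −0.07. Mov10l1, the helicase that starts piRNA processing, was at 0.04 (−0.12 to 0.20), and Asz1, a mitochondrial anchor of the pathway, at −0.03 (−0.23 to 0.17) on a very dim probe set with means of 3.32 and 3.29. The adjusted p-values of these 8 genes lay between 0.339 and 0.906.

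Among the 10 genes named for their expression in testis 1 rose and 1 fell. Tex101, a surface glycoprotein of germ cells, read 5.19, 5.09 and 5.04 and then 5.31, 5.37 and 5.38, a narrow gap between the groups. These values lay under the median gene (6.70). The difference was 0.24 ± 0.055 (SE, 1.18-fold, adjusted p = 0.0472 in limma). Tex101 was called in none of the 6 fits with 1 array left out, where its adjusted p ran from 0.0726 (without knockdown array 3) to 0.17 (without control array 2). Tex101 also missed the threshold with a trended and robust prior (0.0921), when quantile normalization was repeated (0.0523) and when each array was centred (0.0624). Tex15, a germ cell protein needed for meiotic break repair and transposon silencing, read 6.18, 6.12 and 6.15 in control and 5.89, 5.78 and 5.85 in knockdown cells, without overlap. Its values too lay under the median gene. The difference was −0.31 ± 0.051 (SE, 1.24-fold lower, adjusted p = 0.0165 in limma), the smallest adjusted p of all members. Tex15 kept its call without knockdown array 1 or knockdown array 3, and was at 0.0891, 0.0676 and 0.0691 without control array 1, 2 and 3 and 0.067 without knockdown array 2.

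The other 8 testis genes were not called. Tex19.1, which restrains retrotransposons in germ cells and placenta, came closest, with 7.10, 7.12 and 7.18 in control and 7.50, 7.27 and 7.32 in knockdown cells. Its difference was 0.23 ± 0.068 (SE, adjusted p = 0.106). It passed among the brighter genes (adjusted p = 0.035). Taf7l, an X-linked paralogue of a TFIID subunit, was at 0.13, Tex14, a protein of the bridges between germ cells, at 0.12, and Tex11, an X-linked meiotic recombination factor, at −0.10. Stk31 was at −0.06, the testis ADP/ATP carrier Slc25a31 at −0.06 with the widest interval of all members (−0.41 to 0.29), and Brdt, the testis bromodomain protein, at 0.0079. The value of Brdt turned negative without control array 2, without knockdown array 2 and under both rescalings. The α-tubulin gene Tuba3a was at −0.05, and probes may not separate it from its close copy Tuba3b.

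Both X-linked Rhox homeobox genes measured were uncalled. Rhox9 read 8.02, 7.99 and 8.09 and then 8.25, 8.14 and 8.39, a difference of 0.23 ± 0.07 (SE, adjusted p = 0.122), without overlap. It passed among the brighter genes (adjusted p = 0.0424) and with a trended and robust prior (0.0485). Rhox6, its neighbour and close relative, was at 0.05 (−0.07 to 0.17). Of the other Rhox genes listed, 6 of 10 were measured, and none was called (2 at an unadjusted p under 0.05, beside 19.0% of all genes). Rhox10 was at −0.14, Rhox12 at −0.22 and Rhox11 at 0.03.

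**Figure D3:**
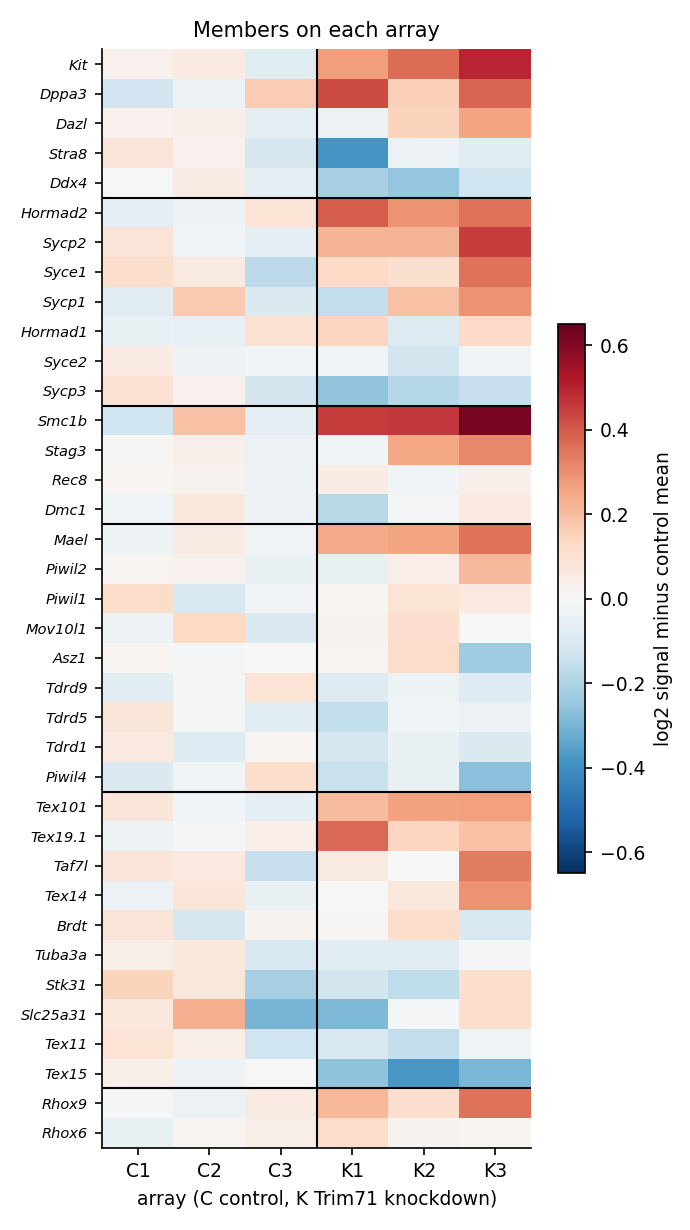
Log2 signal of each of the 37 members (rows, grouped by role, black lines between roles) on each of the 6 arrays (columns, C control and K knockdown), minus the gene's control mean. The median over the members was −0.0027 on knockdown array 1, 0.04 on knockdown array 2 and 0.12 on knockdown array 3.

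Over the 31 members not called, 17 differences lay above 0 and 14 below, with a median of 0.02. The 95% interval of a member, which is not adjusted for the number of genes, reached 0.16 to either side of its difference at the median. A call with 3 arrays per group took a larger difference. The smallest called was 0.24 (Tex101), while Sycp2 at 0.30 and Dppa3 at 0.32 were not called. A member without a call may therefore still differ by that much.

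RefSeq promoter windows, 250 bases before to 50 after the transcription start (GRCm38.p6), were held by the reference tables for 31 of the 37 measured members. Those without a window were Dppa3, Piwil2, Tex11, Tex15, Rhox6 and Rhox9. Every one of the 31 had at least 10 CpG dinucleotides in its richest window, from 10 in Stra8, Sycp2 and Tdrd9 to 48 in Tdrd5, with a median of 20. Of 15613 tested genes with a window 64.3% had at least 10, with a median of 16. CpG is the site of DNA methylation, which was not measured here. The windows of Smc1b, Kit, Hormad2, Mael and Tex101 are shown because these 5 members were called higher. They lie at chr15:85131908-85132207, chr5:75574741-75575040, chr11:4441033-4441332, chr1:166238695-166238994 and chr7:24672001-24672300, on the plus strand for Kit and on the minus strand for the others, and hold 29, 21, 16, 24 and 19 CpG. They are written 5′ to 3′ on the strand of the gene, with each CpG in capitals.
Smc1b: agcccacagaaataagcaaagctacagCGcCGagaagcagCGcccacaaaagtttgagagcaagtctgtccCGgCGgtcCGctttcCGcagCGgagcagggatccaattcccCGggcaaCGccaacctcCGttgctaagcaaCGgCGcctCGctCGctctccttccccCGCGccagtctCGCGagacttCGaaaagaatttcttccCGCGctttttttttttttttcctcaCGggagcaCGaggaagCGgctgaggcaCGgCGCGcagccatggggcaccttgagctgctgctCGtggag
Kit: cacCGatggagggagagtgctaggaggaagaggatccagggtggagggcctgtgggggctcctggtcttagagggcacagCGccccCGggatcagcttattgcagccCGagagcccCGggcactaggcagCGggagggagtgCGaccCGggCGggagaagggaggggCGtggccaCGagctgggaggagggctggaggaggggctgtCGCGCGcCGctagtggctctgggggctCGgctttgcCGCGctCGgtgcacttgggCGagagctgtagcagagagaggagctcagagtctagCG
Hormad2: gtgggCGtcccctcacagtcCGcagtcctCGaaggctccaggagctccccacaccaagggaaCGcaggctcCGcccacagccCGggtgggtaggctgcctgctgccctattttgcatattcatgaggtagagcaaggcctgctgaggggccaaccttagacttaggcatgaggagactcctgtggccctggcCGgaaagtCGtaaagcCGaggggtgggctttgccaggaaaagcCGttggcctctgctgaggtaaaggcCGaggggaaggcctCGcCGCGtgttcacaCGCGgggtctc
Mael: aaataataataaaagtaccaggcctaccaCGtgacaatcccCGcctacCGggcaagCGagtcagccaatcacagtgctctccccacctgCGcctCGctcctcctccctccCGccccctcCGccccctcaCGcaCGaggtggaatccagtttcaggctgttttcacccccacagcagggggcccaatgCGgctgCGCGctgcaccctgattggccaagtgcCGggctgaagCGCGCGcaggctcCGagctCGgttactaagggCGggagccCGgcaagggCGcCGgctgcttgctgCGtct
Tex101: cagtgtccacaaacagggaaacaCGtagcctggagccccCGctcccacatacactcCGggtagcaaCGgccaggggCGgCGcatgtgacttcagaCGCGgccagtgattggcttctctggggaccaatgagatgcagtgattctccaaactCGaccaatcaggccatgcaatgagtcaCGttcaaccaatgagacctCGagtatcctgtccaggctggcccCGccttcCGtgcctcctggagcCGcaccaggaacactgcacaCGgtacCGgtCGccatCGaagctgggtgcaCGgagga

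Short motifs were counted in the same windows. The hexamer CACGTG, the E-box that MYC and MAX family proteins bind, reads the same on both strands. It occurred in 15 of the 31 members (48.4%), in any window of the gene. It occurred in 9.50% of the 15613 tested genes with a window and in 12.6% of the 10032 among them with at least 10 CpG. The hexamer CCTCAG, the core of the motif reported for STRA8, was in 18 of the 31 (58.1%) on either strand, against 29.9% of the tested genes. The heptamer GGCGGGA, an E2F-type site, was in 8 (25.8%) on either strand, against 18.1% of the tested genes and 26.4% of those with at least 10 CpG. Each motif was counted on its own, even where matches of different motifs shared bases, and a match is a description of the sequence, not of binding. The stretches around 1 E-box in each of 8 members are shown because the hexamer recurs across roles, with the 6 bases in capitals and 12 bases on each side, 5′ to 3′ on the strand of the gene.
Mael, chr1:166238950-166238979, minus strand: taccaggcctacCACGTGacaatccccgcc
Ddx4, chr13:112652322-112652351, minus strand: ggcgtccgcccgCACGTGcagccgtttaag
Stag3, chr5:138280327-138280356, plus strand: cgcgctggagccCACGTGacaggactgcac
Sycp1, chr3:102936177-102936206, minus strand: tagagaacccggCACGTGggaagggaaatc
Sycp3, chr10:88459511-88459540, plus strand: gccgttggctccCACGTGagaacgggcatg
Hormad1, chr3:95559645-95559674, plus strand: atgcgcactgcgCACGTGctgaccggagcg
Tdrd1, chr19:56826186-56826215, plus strand: tggggctgcgcgCACGTGggagtaaactgc
Taf7l, chrX:134476522-134476551, minus strand: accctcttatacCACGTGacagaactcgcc

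The first base of the E-box shown lay between −223 (Mael) and −20 (Hormad1) relative to the start. Of the 15 members with it 1 was called higher, Mael, with a median difference of 0.0079, and of the 16 without it 4 were called higher, with a median of 0.12. That difference was not tested. By CpG, 3 of the 16 members at or above the members' median and 2 of the 15 below it were called higher, with medians of 0.05 and 0.02.

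**Figure D4:**
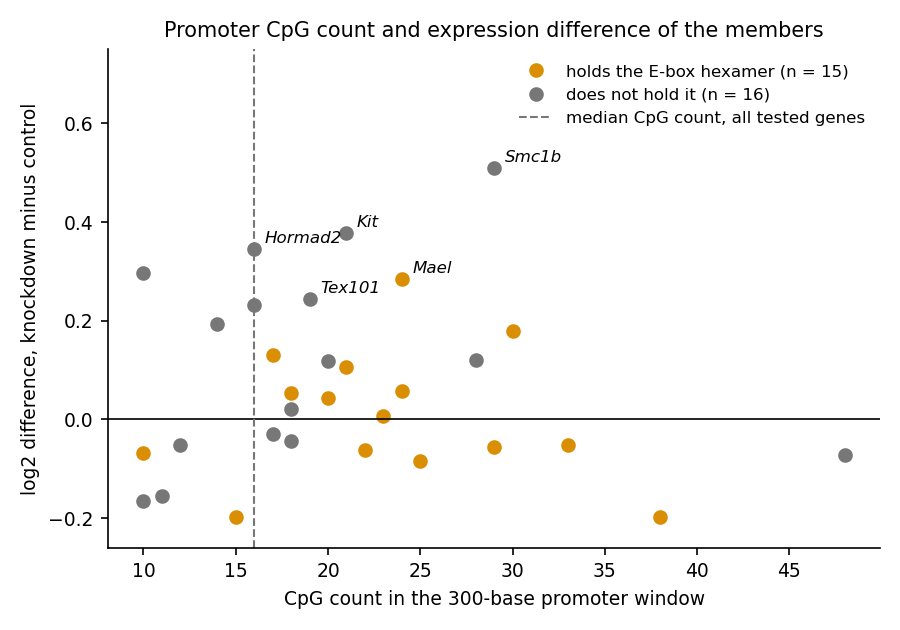
CpG count of the richest 300-base promoter window (x axis) against the log2 difference, knockdown minus control (y axis), for the 31 members with a RefSeq window. Members holding the E-box hexamer are orange (n = 15) and the others grey (n = 16), and the dashed line is the median CpG count of all tested genes with a window, 16.

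Genes that act upstream of or beside the members were described from further lists, also chosen with earlier results of these data known. Of 20 genes for germ cell specification and germline stem cells outside the list above, 4 rose (Nanos3, Tfap2c, Ifitm3 and Prdm1) and 1 fell (Kitl), beside the 3.39% higher and 2.15% lower of all genes. The median over the 20 was −0.0025. Nanos3, which keeps migrating primordial germ cells alive, read 7.79, 7.85 and 7.83 in control and 8.43, 8.33 and 8.35 in knockdown cells. The difference was 0.55 ± 0.05 (SE, adjusted p = 0.00216 in limma), larger than any of the 37 members. Prdm1 (BLIMP1), the repressor that starts the germ cell programme, read 7.80, 7.86 and 7.78 and then 8.11, 8.08 and 8.35, a difference of 0.37 ± 0.077 (SE, adjusted p = 0.036). Tfap2c, which acts downstream of it and also in trophectoderm, was at 0.53, and Ifitm3 (Fragilis), a membrane protein of early germ cells that interferon also induces, at 0.53. Nanos3, Tfap2c and Ifitm3 kept the call in all 6 fits that left out 1 array, and Tfap2c missed it without variance moderation (0.0607). Among the same 6 fits Prdm1 was called only in that without knockdown array 3, with 0.137, 0.0998 and 0.124 without control array 1, 2 and 3, and 0.0585 and 0.0649 without knockdown array 1 and 2.

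Kitl, which encodes the ligand of Kit, went the other way from its receptor. It read 5.60, 5.53 and 5.64 in control and 5.31, 5.15 and 5.27 in knockdown cells, a difference of −0.35 ± 0.06 (SE, adjusted p = 0.0198 in limma). Kitl kept its call without knockdown array 1 or 3. The adjusted p was 0.0938, 0.0641 and 0.0837 without control array 1, 2 and 3, and 0.0689 without knockdown array 2. Of 8 measured genes of the retinoic acid response, which induces Stra8, 0 were called higher and 1 lower. The shares over all genes were 3.39% and 2.15%. Rarg, a retinoic acid receptor gene, had a difference of −0.25 ± 0.044 (SE, adjusted p = 0.0207). Among the fits with 1 array left out it was called only without knockdown array 3. The adjusted p of Rarg was 0.106, 0.0918 and 0.0849 without control array 1, 2 and 3 and 0.0593 and 0.0773 without knockdown array 1 and 2. Crabp2 was at 0.17 and Rarb at −0.13, both uncalled.

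The wider meiotic and piRNA lists gave no calls in limma. Over all genes 19.0% had an unadjusted p under 0.05 in the same fit, the share to set beside the counts below. Of 24 further meiotic genes measured of 30 listed, 0 were called and 4 had an unadjusted p under 0.05, with a median of 0.02. Tex12, a central element protein, was at −0.21 (adjusted p = 0.0658), the mismatch repair gene Mlh3 at 0.20 (0.171) and Iho1, which promotes meiotic breaks, at −0.16 (0.227). With other settings single genes passed, Tex12 with array weights (adjusted p = 0.0404) and with each array centred (0.0462), and Mlh3 with a trended and robust prior (0.0488). Of 14 further piRNA pathway genes measured of 16 listed, 0 were called and 2 had an unadjusted p under 0.05. Gpat2 was at 0.24 (adjusted p = 0.104), Gtsf1 at 0.26 (0.186) and Tdrd6 at −0.25 (0.504), and Gpat2 passed with array weights (0.046). Of the 20 late spermatogenic genes 0 were called and 1, Zpbp at 0.14, had an unadjusted p under 0.05. Izumo1 was at −0.20 and Tssk1 at 0.12.

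Regulators of germ cell gene silencing, a list of DNA methyltransferases and repressors that also holds the TET enzymes, which oxidise methylcytosine and act against methylation, were measured for 30 of 30 genes. Of these 2 rose and 2 fell, beside the 3.39% higher and 2.15% lower of all genes, with a median of 0.001. The de novo DNA methyltransferase genes Dnmt3b and Dnmt3a fell, from means of 9.36 to 8.84 and of 8.54 to 8.19. The differences were −0.53 ± 0.062 (SE, adjusted p = 0.00573 in limma) and −0.35 ± 0.051 (SE, adjusted p = 0.0115). Tet2, which encodes a methylcytosine dioxygenase, rose by 0.34 ± 0.062 (SE, adjusted p = 0.0236), and Setdb1, a histone H3 lysine methyltransferase gene whose product represses germline genes and transposons, by 0.26 ± 0.046 (SE, adjusted p = 0.0222). Dnmt3b kept the call in all 6 fits that left out 1 array. Dnmt3a reached 0.0688, 0.0653 and 0.0555 without control array 1, control array 2 and knockdown array 2. Tet2 reached 0.101, 0.0929 and 0.0903 without control array 1, 2 and 3 and 0.0853 without knockdown array 2, and Setdb1 0.0959, 0.0918 and 0.0937 without control array 1, 2 and 3 and 0.0527 and 0.0813 without knockdown array 1 and 2. Whether any of these differences bears on the members was not tested.

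**Figure D5:**
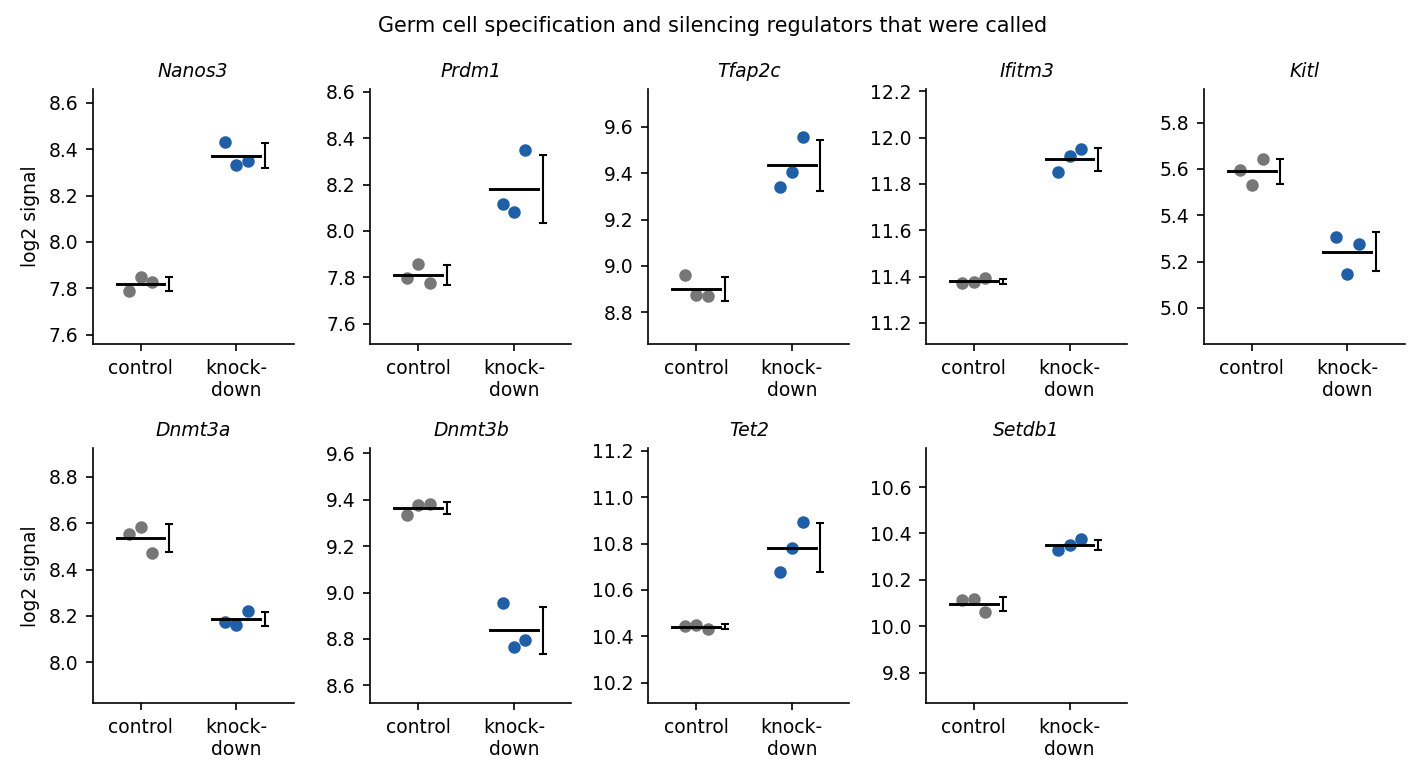
Log2 signal (y axis, the same span of 1.1 in each panel) on each array for the 5 called genes of germ cell specification (top row) and the 4 called silencing regulators (bottom row), control in grey and knockdown in blue, with mean line and SD bar (n = 3). The groups do not overlap in any panel, and Nanos3 has the largest difference of the 9, 0.55.

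Markers of other cells and states were read beside the members. Over all genes 3.39% were called higher and 2.15% lower. Of the 10 embryonic stem cell markers 3 rose and 0 fell (Klf4 at 0.36, Fgf4 at 0.31 and Zfp42 at 0.25), with a median of 0.14. Of the 11 feeder markers 0 rose and 1 fell, the smooth muscle actin gene Acta2 at −0.70, while Col3a1 was at −0.09 and Col6a1 at 0.04. Of the 4 two-cell-like markers measured of 10 listed, 1 rose, Zfp352 at 0.43, with Gm5662 at 0.70 (adjusted p = 0.0649) and Usp17lc at 0.08 uncalled. The mean of these 4 was 5.17 to 5.34 on the control and 5.56 to 5.59 on the knockdown arrays. Of 14 genes of somatic gonad cells 1 rose, Clu at 0.40, while Wt1 was at −0.33 (adjusted p = 0.0528) and Sox9 at 0.29, and the list mean ran from 5.64 to 5.71 and from 5.67 to 5.75. When arrays were left out in turn, Acta2 kept its call in all 6 fits. The others lost it in some, with the highest adjusted p at 0.068 for Klf4, 0.103 for Fgf4, 0.105 for Zfp42, 0.0913 for Clu and 0.153 for Zfp352, each without control array 1. Wt1 passed without knockdown array 1 (0.0286) and Gm5662 without control array 1 (0.0338). The part of any such cells or states in the members' differences was not tested.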

How the data were processed

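The deposited table holds log2 values for each probe set on 6 arrays. Per the submitters' processing notes the authors used RMA and the affy package, and neither versions nor a genome build are given in the sources used here. Because RMA quantile normalizes arrays after background correction, a shift common to most genes is largely removed and cannot be measured. Small differences between arrays remained, as in the upper quartile of knockdown array 3 (8.42, against 8.32 to 8.35 on the others).

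Names came from the platform annotation at GEO. Of 34760 probe sets, 21640 had 1 symbol, 1321 several and 11799 none here. Of those with 1 symbol, 21553 matched RefSeq by Entrez identifier, and 0 symbols changed. Per gene the probe set with the highest mean was used. A linear model with group as its only term was fitted to 19937 genes in R 4.3.3 with lmFit and eBayes of limma 3.58.1, with Benjamini-Hochberg adjustment over all of them and a threshold of 0.05. It was tested on simulated data. Figures and promoter counts used Python 3.11.15, pandas 2.3.3 and matplotlib 3.10.9. A gene with several RefSeq promoter windows was given the window with the most CpG, and a motif counted if any window held it.

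Named were all members and, in each further list, every called gene and the 3 with the largest absolute statistic, plus Trim71. The members and lists were chosen with earlier results of these data known, and the promoter motifs after the members' values were seen. The alternatives were a replicate block, each array left out in turn, bright genes only, a trended and robust prior, array weights, no variance moderation, averaged probe sets, repeated quantile normalization, arrays centred on their medians, an adjusted p under 0.01, and all probe sets tested. The number of arrays and the spread between them limit the precision.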

Additional observations from a re-analysis of the deposited data

How the results depend on the processing

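With 1 array left out, the higher members numbered 0 to 4 and the lower members 0 to 1. The higher and lower members were 0 and 0 with the replicate block, without variance moderation, at an adjusted p under 0.01 and with all probe sets tested. Lower members were 2 with a trended and robust prior, with array weights and after a repeated quantile normalization. Higher members were 4 to 6 in the remaining alternatives. The 6 called members kept their sign in each of the 16 alternatives that tested them, since the restriction to brighter genes left out Hormad2, Tex101 and Tex15. The members' median ran from 0.02 to 0.09 (the highest among the brighter genes, which leave out 17 members), and each value lay within 1 SD between arrays (0.05) of the reported 0.05. That SD is as large as the median itself, so this rule would not have marked a median of 0 as changed. Same-numbered arrays had deviations correlated at −0.07, −0.05 and −0.22, so no pairing by replicate number was seen. No values for differently numbered arrays were set beside these, and the labels state no pairing, so how the arrays were paired is not settled. With the replicate block, 171 genes were higher and 108 lower over all 19937, against 675 and 428 without it, so the calls lost under it are not read as weaker effects. Over all alternatives the called genes numbered 148 to 1213 higher and 94 to 1058 lower. The differences that changed sign were all of uncalled genes. Rec8 was at −0.00205 with array weights, −0.0146 after repeated quantile normalization and −0.00872 with centred arrays, Brdt at −0.0154 and −0.0223 under these rescalings, and Asz1 at 0.0591 with array weights. With 1 array left out the differences ranged from −0.105 to 0.069 for Asz1, −0.0487 to 0.0636 for Brdt, −0.0969 to 0.0235 for Dmc1, −0.00353 to 0.108 for Mov10l1, −0.00351 to 0.125 for Piwil2, −0.0209 to 0.0708 for Rhox11, −0.213 to 0.0561 for Slc25a31, −0.164 to 0.0166 for Stk31. The cause was not tested. The number of arrays and the dim signal of 17 members limit what could be seen.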
